A study of Caenorhabditis elegans with 2 samples.

Results

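The histone genes of Caenorhabditis elegans were examined for recovery of the tagged transcription factor subunit NFYA-2 at their promoters. The members were the 72 protein-coding genes whose Ensembl symbol begins with his-, out of 19973 protein-coding genes on the nuclear chromosomes. Gene identifiers were used because the 72 genes carry 50 distinct Ensembl symbols, and the RefSeq symbols, which are distinct for all 72, name them here. Per the RefSeq products they encode 17 H2A, 16 H2B, 15 H3, 16 H4, 5 H3.3 and 1 H1 protein, and 2 short genes have a product named only for its histone domain.

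Chromatin immunoprecipitation followed by sequencing (ChIP-seq) had been done on intact young adults of strain RW12238, with an antibody against GFP. A CRISPR insertion in this strain adds TY1, EGFP and 3xFLAG to nfya-2 at its own locus. Worms were synchronised by bleaching and L1 starvation and collected at 64 hours. The 2 libraries are biological replicates of 1 group, so no comparison between groups was possible. No untagged strain was analysed here, and signal from whole animals does not tell one tissue from another.

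NF-Y is a trimer of A, B and C subunits that binds the pentamer CCAAT, and in mammals it is a well-known regulator of histone and cell cycle promoters. Core histones package DNA in nucleosomes and are needed in bulk when DNA is replicated, whereas H3.3 is deposited outside replication and H1 binds the linker between nucleosomes. In the worm most core histone genes lie in clusters as divergent pairs, H2A with H2B and H3 with H4, which read away from a short shared gap. Many of these copies are nearly identical to one another, so a short read from one copy can match several.

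The value given for a gene is the highest signal among ranked regions with a summit from 1000 bp upstream to 200 bp downstream of its annotated start. The signal is the authors' peak caller value, in its own units. The ranked list is long and mostly below any peak threshold, with 71547 regions. A region therefore counts as a peak only where a thresholded list holds it. For 65 of the 72 genes the annotated start is the start codon, so the windows are measured from coding starts.

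A ranked region was present for 40 of the 72 histone genes (55.6%), against 61.3% of all coding genes. The 40 genes drew on 36 distinct regions. Among the genes with a region the median signal was 34.5 and the range 12.7 to 81.8, and the coding genes with a region had a median of 25.4. The histone median lay at the 80.9th percentile of those coding genes, but with genes lacking a region counted at 0 it lay at the 45.0th. The share of histone genes with a region was thus near that of coding genes. With this window the regions present ranked higher. With a region counted only for its nearest gene start, the histone median lay at the 41.9th percentile.

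With the window as defined, the upper end of the ranking held a larger share of histone genes than of all coding genes. A signal above the 90th percentile of coding genes with a region, 39.5, was found for 17 of 72 (23.6%), against 6.13% of all coding genes. These 17 genes hold 16 regions. The H2A gene his-3, at 40.1, was just inside this value and the H2B gene his-58, at 37.2, just outside. An irreproducible discovery rate (IDR) of at most 0.05 between the replicates, the authors' measure of how well their ranks match, was found for the regions of 8 histone genes, against 1.62% of coding genes. These were the H3 genes his-63, his-42 and his-59, the H4 genes his-56, his-46 and his-60, and the H2B genes his-48 and his-66. These shares depend on the window: from 500 bp upstream to 100 bp downstream, 5 genes passed the 90th percentile and the median lay at the 45.0th percentile. With a region counted only for its nearest gene start, 4 of 72 passed (5.56%), against 4.88% of coding genes. The nearest annotated start to the summit was the gene's own for 9 of the 40 genes with a region.

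**Figure D1:**
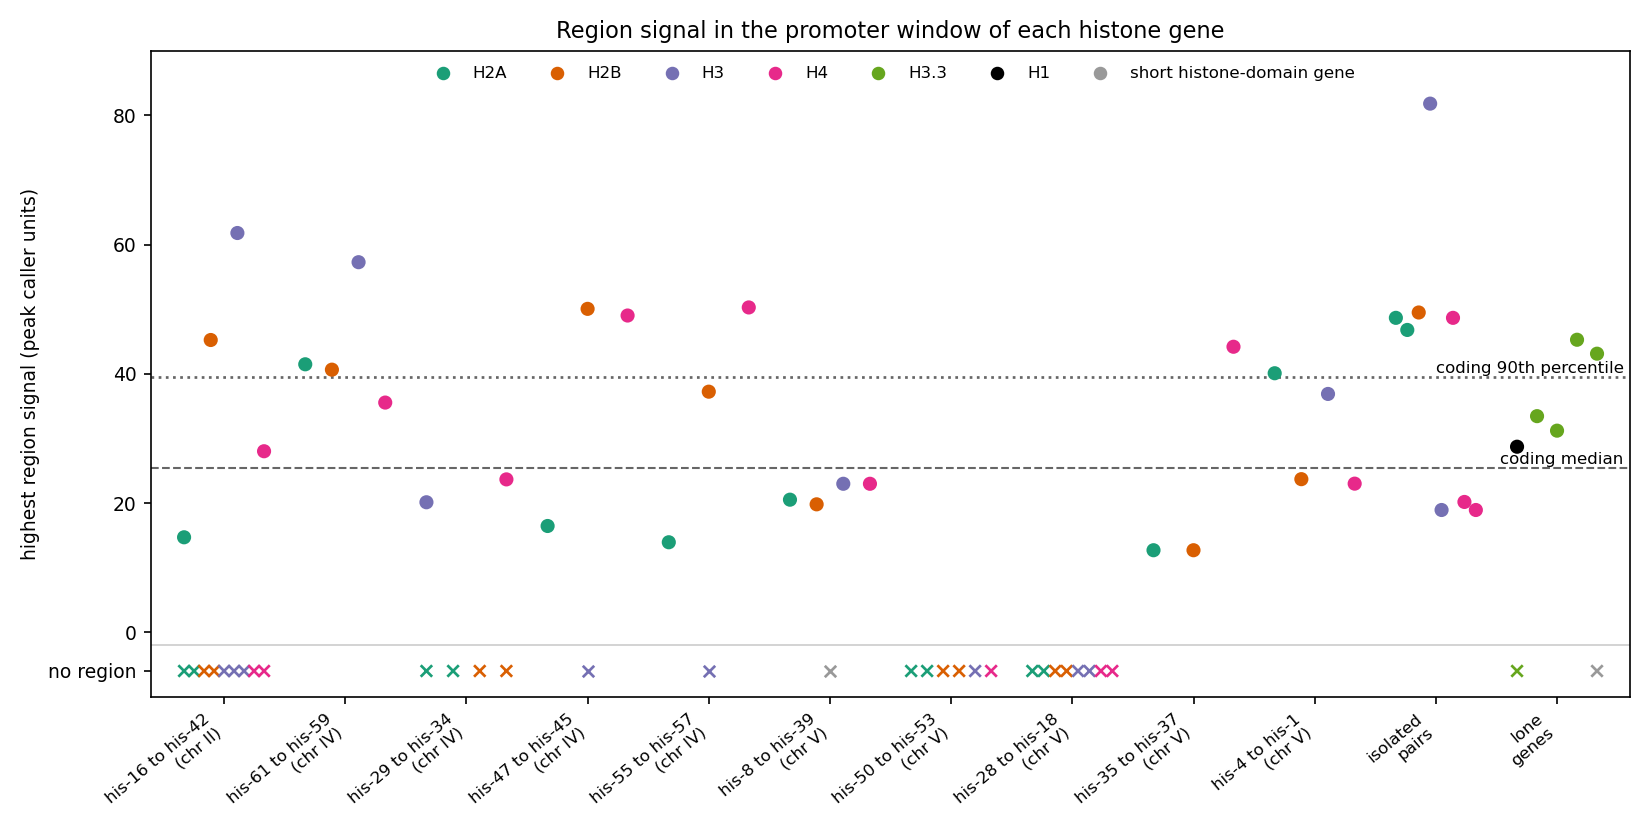
Highest region signal of each histone gene (y axis, peak caller units) by cluster, isolated pair or lone gene (x axis). Circles are genes with a region and crosses genes with none, coloured by histone type, and the dashed and dotted lines mark the coding median of 25.4 and 90th percentile of 39.5. The 14 genes of the clusters from his-50 to his-53 and from his-28 to his-18 are all crosses.

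Thresholded peaks were present at 2 histone genes, the H3 genes his-63 and his-42. Both were in the list that the authors name conservative, which held a peak for 0.726% of coding genes, and in the other thresholded list of the series, which held one for 0.961%. In the list of replicate 1 (0.305% of coding genes) his-63 alone had a peak, and in that of replicate 2 (0.255%) no histone gene did. With the narrower window neither gene kept a peak, because both summits are more than 500 bp upstream.

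The his-63 region was the strongest of the 36. Its signal was 81.8, with 46.6 in replicate 1 and 32.3 in replicate 2, and its IDR was 0.00282. The gene (WBGene00001937) lies on chromosome IV from 11406451 to 11406861 on the minus strand, and the region from 11407307 to 11407546 (WBcel235). The summit, 566 bp upstream of the his-63 start, was not in the gap shared with the H4 gene his-64. It was the last base of the his-64 coding sequence. The H3 gene his-59 showed the same arrangement with its own H4 partner his-60. Its region had a signal of 57.3, with 33.3 in replicate 1 and 25.5 in replicate 2. That summit was 29 bases before the end of his-60. The last 30 coding bases of both H4 genes are shown because both summits fall in them. The capital marks the summit base and the letters are otherwise the same, read from the RefSeq WBcel235 genome in the direction of the H4 gene.
his-64: ggaagaactctgtacggattcggaggataA
his-60: Ggaagaactctgtacggattcggaggataa
This stretch recurs in other H4 copies. Of the words of 31 bases within 100 bp of the summit, 56.1% at his-63 and 19.9% at his-59 occur elsewhere in the genome.

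The his-42 region stood apart from its cluster. Its signal was 61.8, with 37.1 in replicate 1 and 29.8 in replicate 2, and its IDR was 0.00569. The gene (WBGene00001916) is an unpaired H3 gene on chromosome II from 13828287 to 13828697 on the minus strand, and the region runs from 13829413 to 13829652. The summit was 836 bp upstream of his-42 and 42 bp from the start of F08G2.10, a gene annotated as a small nuclear RNA. Which of these genes the peak belongs to was not tested. No CCAAT lay within 100 bp of this summit.

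The divergent pairs were next examined by where their summits fell. There were 31 pairs, with 62 genes and gaps of 227 to 368 bp. Of the 33 paired genes with a region, 13 had the summit inside the partner gene, 11 past the end of the partner, 8 in the shared gap and 1 in the gene itself. The strongest pair was his-63 and his-64, and the weakest was his-35 and his-41, at 12.7 for both. Most of the values given to paired genes thus come from sequence beyond the gap. The window reaches 1000 bp upstream, so most of it lies outside a gap of these lengths. The same count was not made for other divergent pairs, so it is not a trait of histone pairs.

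A summit lay in the gap of 7 of the 31 pairs (22.6%). Among the 303 other divergent coding pairs with gaps of the same lengths the share was 24.4%. The gap regions of histone pairs had a median signal of 23.0 and a range of 12.7 to 48.7. The pair with 48.7 was his-67, an H4 gene, with his-68, an H2A gene, the only pair of these kinds and on chromosome I. Its replicate signals were 21.7 and 26.7 and its IDR was 0.0626. It was the only gap region above the coding 90th percentile. The other gaps with a summit were those of his-61 and his-62 at 30.1, his-60 and his-59 at 28.0, his-2 and his-1 at 23.0, his-8 and his-7 at 19.8, his-38 and his-40 at 18.9, and his-35 and his-41 at 12.7.

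With every base counted, repeated sequence included, summits per kb were similar in the parts of the pairs, but their signals were not. In the gaps there were 7 summits over 8354 bp, or 0.838 per kb. Inside the gene bodies there were 17 over 24432 bp, or 0.696 per kb, and in the first 300 bp past the gene ends 13 over 18600 bp, or 0.699 per kb. The genome as a whole had 0.714 per kb. At least 50% of the words were repeated in 20 of 31 gaps, 50 of 62 gene bodies and 30 of 62 end stretches. All 7 gap summits lay in the 11 gaps with fewer repeated words. These densities therefore do not compare equally unique sequence. The median signal was 23.0 in the gaps, 23.7 in the gene bodies and 42.2 past the ends, and 23.0 over all ranked regions. Above the coding 90th percentile were 1 of 7 gap regions, 5 of 17 gene body regions and 7 of 13 past the ends. That percentile is taken over the highest region of each gene. Of all 71547 ranked regions, 5.95% had a signal above 40.1. The ends of other coding genes were not compared. With only summits whose surroundings held under 50% repeated words, the medians were 23.0 over 7 gap regions, 23.0 over 11 gene body regions and 43.7 over 10 regions past the ends.

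The 11 regions past a partner end that were assigned to a paired gene ran from 13.9 to 50.3. Of these, 6 were above the coding 90th percentile, at 45.2 to 50.3, a range limited from below by that cut-off. The his-56 region, 82 bp past the H3 gene his-55, had a signal of 50.3, with 25.7 in both replicates. The his-48 region, 120 bp past the H2A gene his-47, had 50.05, with 27.5 in replicate 1 and 26.4 in replicate 2. The his-46 region, 113 bp past the H3 gene his-45, had 49.0, with 23.8 and 25.9, and lay 149 bp from the start of the coding gene B0035.21. On either side of 1 isolated pair lay the regions of his-66, 199 bp past the H2A gene his-65, at 49.5, and of his-65, 108 bp past the H2B gene his-66, at 46.8. The his-15 region, 136 bp past the H2A gene his-16, had 45.2, with 15.5 and 26.0, and lay inside the coding gene ZK131.11. Its IDR was 0.273, and its replicate 2 value has no exact entry in the list of that replicate. All of these lie past the annotated ends of core histone genes, also where another gene is nearer. For 64 of the 72 genes, these among them, the model holds only coding sequence. The distances are therefore from coding ends, and where the messenger RNAs end was not examined. As background, the messenger RNA of most metazoan core histones ends in a stem-loop rather than a poly(A) tail. Among the 11 assigned regions past a partner end, the weakest were those of his-12 at 14.7 and his-57 at 13.9.

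**Figure D2:**
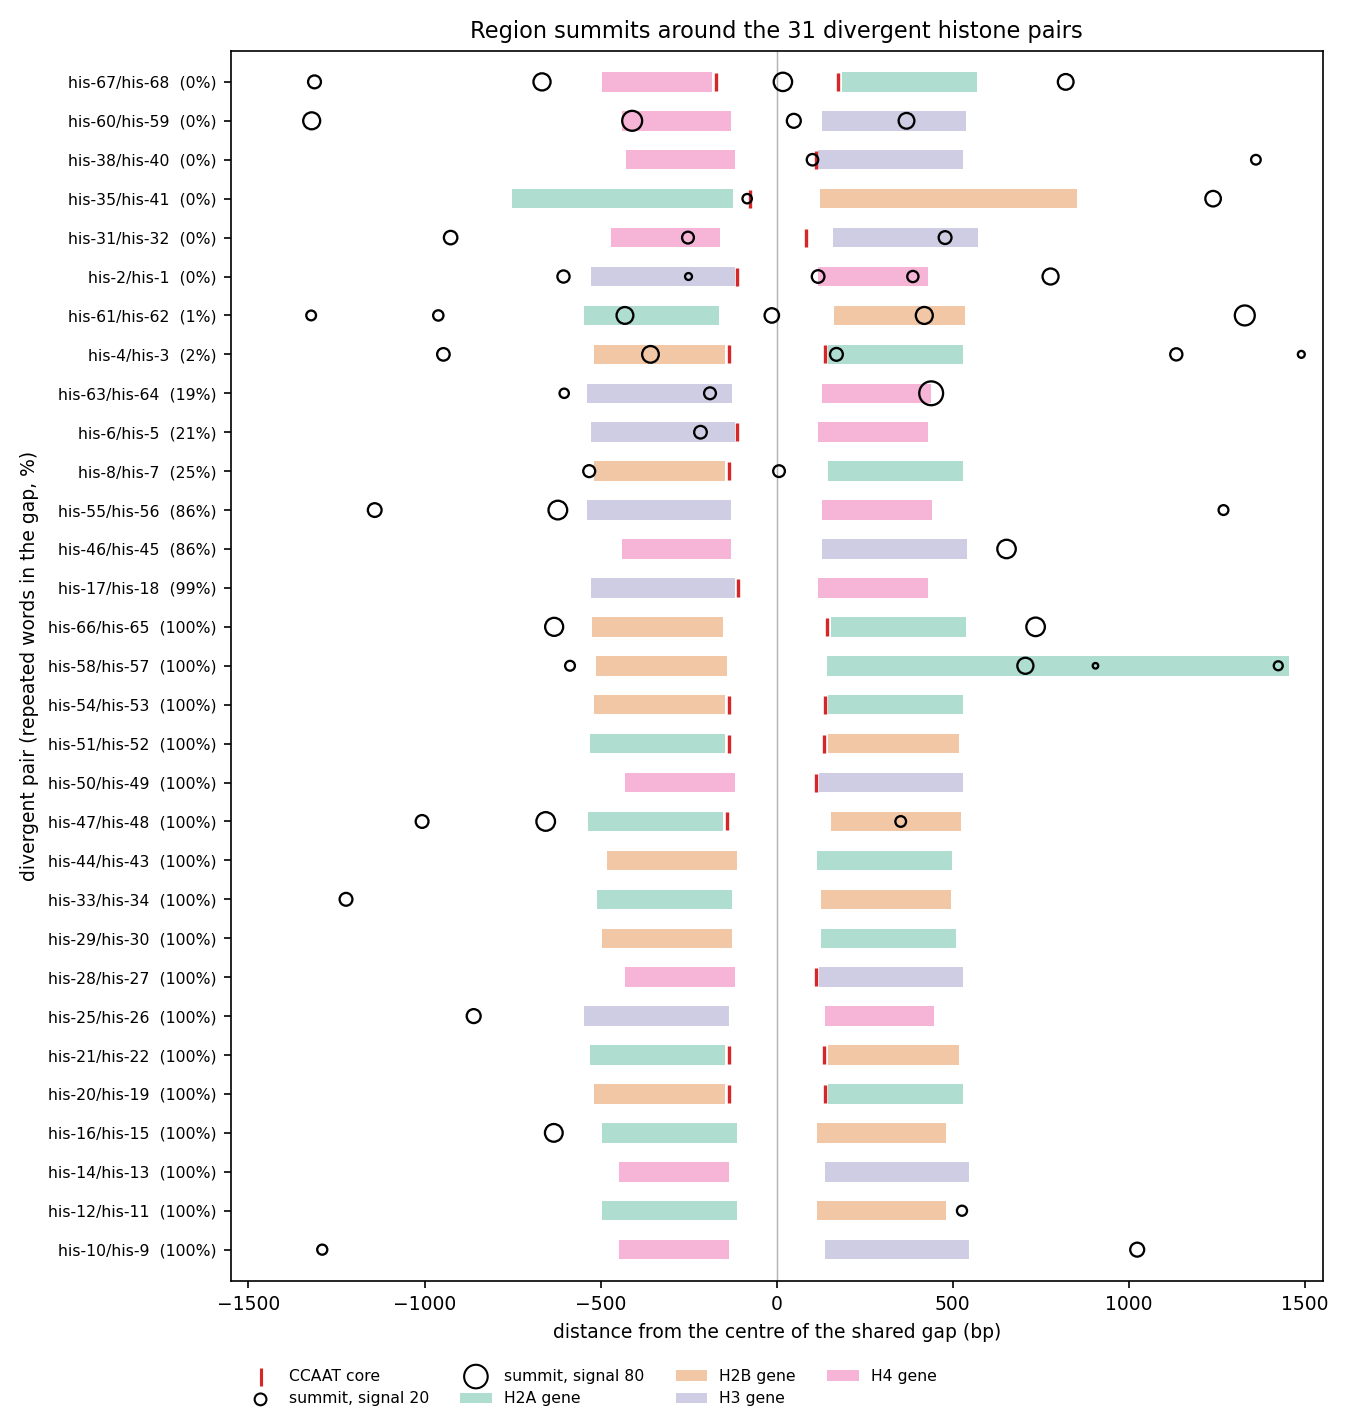
Position of every ranked summit within 1500 bp of the gap centre (x axis, bp) for the 31 divergent pairs (y axis), sorted by the percentage of repeated words in the gap, which stands beside each name. Bars are genes coloured by type, open circles are summits with area in proportion to signal, and red ticks are CCAAT cores in the gap. Many of the larger circles sit at or past the outer gene ends, and no gap with at least 50% repeated words holds a summit.

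How much of each window is unique in the genome was measured beside these values. A word of 31 bases was called repeated when it occurs at 2 or more places on either strand. The promoter window held at least 50% repeated words at 43 of the 72 histone genes, against 3.3% of all coding genes. Of these 43, 14 had a region (32.6%), close to the 30% of coding genes with such windows. Of the 29 histone genes with fewer repeated words, 26 had a region (89.7%), against 62.4% of coding genes of that kind. The genes without a region were therefore mostly those in repeated sequence, and what part the mapping of reads played was not tested.

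The same split held in the gaps. Of the 20 gaps with at least 50% repeated words, 0 had a summit, and among 9 other divergent coding pairs with such gaps 11.1% did. Of the 11 gaps with fewer repeated words, 7 had one, against 24.8% of other coding pairs. The 31 gaps hold 21 distinct sequences, read on either strand, and 16 of them have an exact copy, so the gaps are not independent of one another. Among the 26 histone genes with a region and a window under 50% repeated, the median signal was 34.5, and among the 14 in repeated windows it was 32.6.

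**Figure D3:**
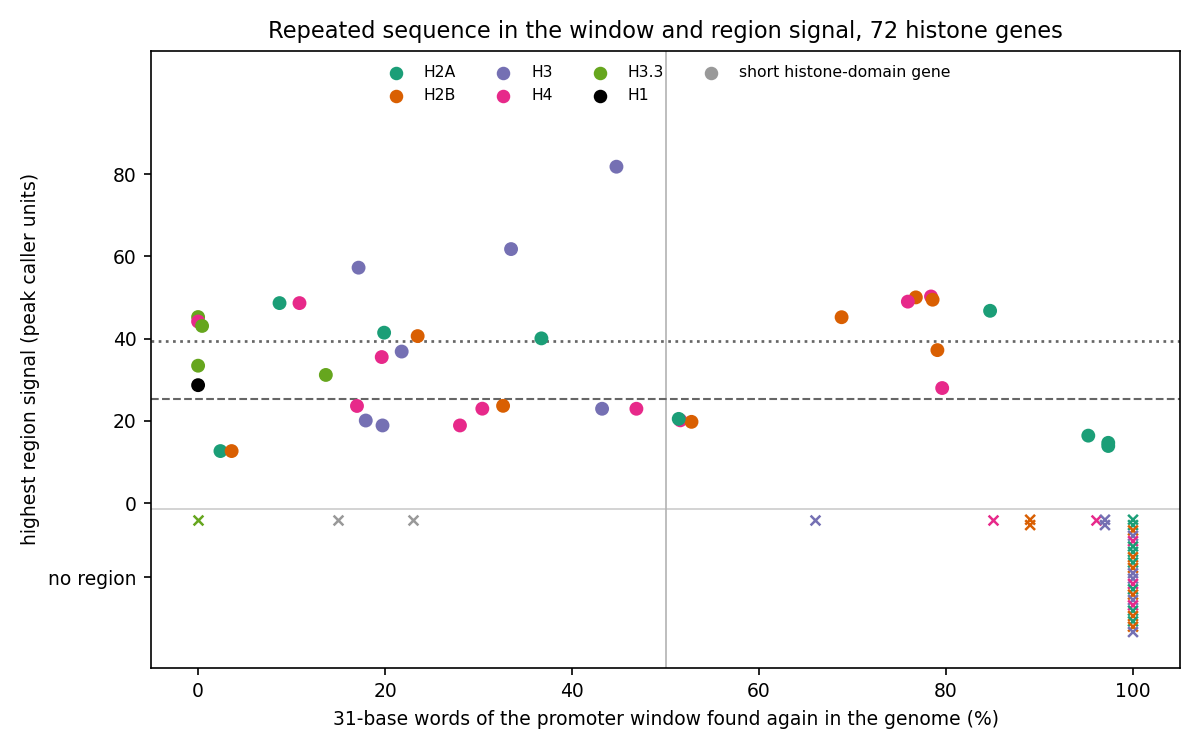
Highest region signal (y axis, peak caller units) against the percentage of 31-base words in the promoter window that are found again in the genome (x axis), for 72 genes coloured by type, with the coding median of 25.4 dashed and 90th percentile of 39.5 dotted. Crosses below 0 are genes with no region, stacked where values coincide; 3 of them lie left of the line at 50% and 29 right of it.

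Clusters with the most repeated sequence had the smallest share of genes with a region. A cluster was at least 3 histone genes with starts within 5000 bp of the next, which gave 10 clusters with 57 genes. The V clusters from his-50 to his-53, with 6 genes, and from his-28 to his-18, with 8 genes, had no summit anywhere in 6661 and 9052 bp. Their median window was 100% repeated. The II cluster from his-16 to his-42, also at a median of 100%, had a region for 4 of 13 genes, from 14.7 at his-12 to 61.8 at his-42. The IV cluster from his-29 to his-34, at 89.4%, had one for 2 of 6, his-31 at 23.7 and his-32 at 20.1.

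In the clusters with more unique sequence nearly every gene had a region. The IV cluster from his-61 to his-59, at a median of 19.8% repeated, had one for all 4 genes, from 35.5 at his-60 to 57.3 at his-59. The V cluster from his-4 to his-1, at 31.5%, had one for all 4, from 23.0 at his-1 to 40.1 at his-3. The V cluster from his-35 to his-37, at 2.39%, had one for all 3, from 12.7 at his-35 to 44.2 at his-37. The V cluster from his-8 to his-39, at 46.9%, had one for 4 of 5, from 19.8 at his-8 to 23.0 at his-6. Unique sequence thus did not go with a high signal in every cluster. The remaining IV clusters, with 86.0% and 88.2% repeated, each had a region for 3 of 4 genes, from 16.4 at his-47 to 50.05 at his-48 and from 13.9 at his-57 to 50.3 at his-56.

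Genes outside the clusters had a higher median, 43.1 over 13 of 15 genes, than the clustered genes, 28.0 over 27 of 57. The difference of -15.1 for clustered genes reversed, to 2.10, when starts within 10000 bp were joined, which moves his-63 to his-66 into a cluster. Genes in divergent pairs had a median of 28.0 over 33 of 62, and the others 43.1 over 7 of 10. This difference of -15.1 was -5.31 on replicate 1 signals and -2.92 on those of replicate 2. Both contrasts are descriptions over genes, which share regions and copies and are not replicates.

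The lone and variant genes were next. Of the 5 H3.3 genes, 4 had a region, and none had a thresholded peak. The his-72 region had a signal of 45.3, with 22.9 in replicate 1 and 20.7 in replicate 2, and its summit was 203 bp upstream of the gene. The his-74 region, 35 bp inside the gene, had 43.1, with 15.3 and 27.1. These were above the coding 90th percentile. The his-69 and his-70 regions had 33.4 and 31.2. The his-70 summit was 857 bp upstream, inside a pseudogene whose start is nearer, at 385 bp. Repeated words made up 70.8% of those within 100 bp of that summit. The gene his-71 had no region although 0% of its window is repeated. The H1 gene his-24 had a region of 28.7, with 10.3 and 18.8, at 29 bp downstream of its start. The start of the noncoding RNA gene M163.19 was nearer to that summit, at 25 bp. The H4 gene his-37, at the end of a cluster but unpaired, had 44.2, with 27.9 in replicate 1 and 11.1 in replicate 2, at 24 bp downstream of its start. That replicate 2 value has no exact entry in the replicate's own list, whose highest value in the window is 19.5. The short genes his-39 and his-73 had no region.

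By histone type the groups overlapped. Among genes with a region, H3 genes had a median of 36.9 over 7 of 15, H2B genes 38.9 over 8 of 16, H4 genes 28.0 over 11 of 16 and H2A genes 20.5 over 9 of 17. The H3.3 median was 38.3. Every one of the core types had members above the coding 90th percentile, with 4 H2A, 4 H2B, 3 H3 and 4 H4 genes, against 6.13% of all coding genes. The type is that of the assigned gene, and most summits of paired genes lay in or past a partner of another type. The H3 values of his-63 and his-59, for example, come from summits inside H4 genes. These values are therefore not traits of a histone type.

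The replicates were compared region by region. The replicate signals differed by a median of 1.5-fold over the 36 regions and by more than 2-fold in 8 of them. Replicate 1 was higher in 17 and replicate 2 in 19. Among the 8, the replicate 2 values of his-37, his-32, his-12 and his-57 have no exact entry in that replicate's own list. At his-57 neither value has one. These are not plain differences between replicates. Separate regions can also share values: those inside his-57 with pooled signals of 37.2 and 4.39 both carry 25.2 and 15.8. The rank correlation of the replicate signals was 0.55 over these 36 regions and 0.19 over all 71547, where regions share the same libraries and are not independent. The his-62 region had 10.9 in replicate 1 and 32.6 in replicate 2, with a pooled signal of 40.6. At his-61, with a pooled signal of 41.5, the ranked list pairs 17.2 in replicate 1 with 3.95 in replicate 2. The own list of replicate 2 has a further summit 127 bp away, with 24.7, so that pair of values is not a plain difference between replicates. For the 10 strongest regions the replicates differed by at most 1.44-fold. The depths of the libraries are unknown, so a difference in level between replicates has no scale of its own.

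**Figure D4:**
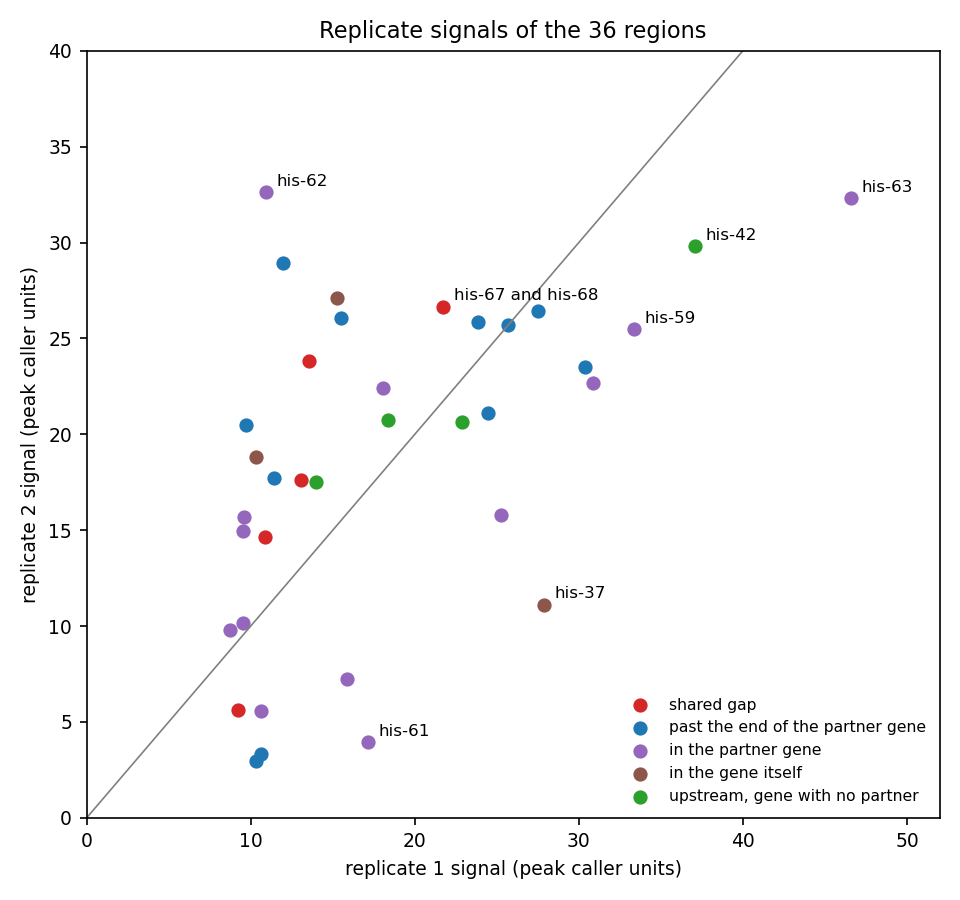
Replicate 2 signal (y axis) against replicate 1 signal (x axis), in peak caller units, for the 36 distinct regions, coloured by where the summit lies, with the line of equality. The his-63 and his-42 regions have the highest replicate 1 signals, and the his-61 and his-62 regions lie on opposite sides of the line.

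CCAAT content was then compared with the signal. The core, searched on both strands in the 500 bp upstream, was present at 53 of 72 histone genes, and 64.2% of all coding genes have it. The 33 of these genes with a region had a median signal of 31.2, and the 7 of 19 without CCAAT had 41.5. The difference of -10.3 reversed to 9.38 on replicate 2 signals, to 9.14 with a window of 2000 bp upstream to 500 bp downstream and to 12.1 for the extended consensus, so no direction held. A CCAAT lay within 100 bp of the summit for 14 of the 40 genes with a region, near the share of 35.6% among all coding genes with a region. The extended consensus, CCAAT with a purine pair before it and a C or G and then a purine after it, was upstream of 12 histone genes, against 4.22% of coding genes. Only 4 of these 12 had a region, and these drew on 3 distinct regions. The genes his-67 and his-68 had the shared gap region of 48.7. The 8 genes his-19 to his-22 and his-51 to his-54 had no region, and their windows are 100% repeated. The H2A gene his-3 had 40.1 and the H2B gene his-4 had 23.7. The only extended consensus within 100 bp of a summit was that of the his-4 region.

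Most cores in the gaps lay just before a start codon. A CCAAT reading in the direction of the gene lay within 20 bp before the start codon at 23 of the 72 histone genes, against 2.05% of coding genes. Its first base was 9 to 16 bases before the start codon, and at H3 genes it was 9 bases before it in all 6. By type these were 9 of 17 H2A, 6 of 16 H2B, 6 of 15 H3, 1 of 16 H4 and 0 of 5 H3.3 genes, with the short gene his-73. No histone gene had a CCAAT in the opposite direction there, but only 1.02% of coding genes do, so this absence is not particular to histone genes. Of the 23 cores in the gaps, 21 were of this kind and 2 lay farther away. Several of the genes are copies of one another, so the count is not one of independent sites.

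The last 30 bases up to and including the start codon are shown for 6 of these genes, because they show where the pentamer stands in each type. Capitals mark CCAAT and the start codon. They were read from the RefSeq WBcel235 genome in the direction of each gene.
his-49 (H3): cacagtccctatcggattCCAATtgaaATG
his-40 (H3): cacagtccctatcggattCCAATcgaaATG
his-52 (H2B): gtccaacgaccagtCCAATcaatcgaaATG
his-8 (H2B): gcccaacgaccagtCCAATcaatcgaaATG
his-51 (H2A): ttctacatctaccaaCCAATcatcaccATG
his-47 (H2A): tcgtcttacgaacaCCAATcgctcatcATG
The his-49 sequence was shared with 2 more H3 genes, his-27 and his-17. The his-52 sequence was shared by 5 H2B genes, the his-51 sequence by 4 H2A genes and the his-47 sequence by 3 H2A genes.

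A whole gap shows how the motifs are spaced. The 292 bp between the H2B gene his-20 and the H2A gene his-19, at chr V:8895473-8895764 on the plus strand of WBcel235, occur in 4 identical copies and held no ranked summit. The 256 bp between the H4 gene his-60 and the H3 gene his-59, at chr IV:7487993-7488248, hold no CCAAT, are 0% repeated and held a summit with a signal of 28.0. Capitals mark CCAAT or its complement ATTGG, and TATAAA or its complement TTTATA.
his-20/his-19: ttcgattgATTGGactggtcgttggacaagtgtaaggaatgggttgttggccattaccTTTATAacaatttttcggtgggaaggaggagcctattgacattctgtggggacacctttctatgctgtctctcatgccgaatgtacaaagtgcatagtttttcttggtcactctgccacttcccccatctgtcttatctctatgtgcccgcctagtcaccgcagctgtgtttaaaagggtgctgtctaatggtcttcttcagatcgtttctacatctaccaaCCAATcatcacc
his-60/his-59: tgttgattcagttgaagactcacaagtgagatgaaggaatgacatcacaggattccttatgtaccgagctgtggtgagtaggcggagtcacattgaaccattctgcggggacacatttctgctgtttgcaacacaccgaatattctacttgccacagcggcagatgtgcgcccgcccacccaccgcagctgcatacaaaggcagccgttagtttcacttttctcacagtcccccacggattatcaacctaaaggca
The H2A and H2B gap has a CCAAT at either end, each facing its own start codon. Over the 31 pairs a CCAAT core lay in 17 gaps, against 36% of other divergent coding pairs, and TATAAA in 24, against 43.9%. These matches are descriptions of the letters, and no binding is read from them.

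The cores beside the start codons were then compared with the summits. Among the 23 genes with such a CCAAT, 3 had a summit within 100 bp of the start codon, against 16.1% of all coding genes and 12.7% of the coding genes with a CCAAT there. The 3 were the H3 gene his-6 at 23.0, the H2A gene his-3 at 23.7 and the H3 gene his-40 at 18.9. The median signal of such summits was 23.2 over all coding genes and 22.9 over coding genes with a CCAAT there. The his-3 value is that of the region at its start codon, and its stronger region of 40.1 lies inside his-4. Of the 23 genes, 8 had windows under 50% repeated, and these 3 were among them. Of the coding genes with such a CCAAT and a window under 50% repeated, 13.3% had a summit there, and 8 histone genes are few for a share. None of the 8 histone genes with an IDR of at most 0.05 had a CCAAT just before its start codon, which 2.05% of coding genes have. Their summits lay 497 to 888 bp upstream of the start, away from that site. A CCAAT lay within 100 bp of the summit for 4 of these 8, against 35.6% of coding genes with a region. The other 15 of the 23 genes have windows of at least 50% repeated words. Whether their cores were bound was not tested.

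Genes that act on histones were set beside them, from a list of linker and variant histones, chaperones and the stem-loop binding protein. Of 23 such genes, 15 had a region, near the share of 61.3% of all coding genes. Their median was 30.6 and their range 10.1 to 89.99. Above the coding 90th percentile were 4 of the 23, against 6.13% of all coding genes. A conservative peak was present at 2, against 0.726%. Whether the summits lie nearest to the starts of these genes was not tested. The gene hcp-3, which encodes the centromeric H3 variant, had a conservative peak of 89.99, with 29.5 in replicate 1 and 61.9 in replicate 2. The gene lin-53, which encodes an RbAp46/48-type histone-binding protein, had one of 87.1, with 36.04 and 53.0. The H3-H4 chaperone gene unc-85, an Asf1 homolog, had 56.1, and htz-1, which encodes H2A.Z, had 48.2, both without a thresholded peak. The stem-loop binding protein gene cdl-1 had 30.6. The highest of the linker histone genes named hil-, of which 4 of 8 had a region, was hil-7 at 29.2. The hcp-3 and lin-53 peaks had higher signals than those of his-63 and his-42, and their windows held 0% repeated words.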

How the data were processed

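The authors deposited peak lists on assembly ce11, which derive from filtered alignments and a control per the file headers and accompanying text. Which aligner and which caller made them is not given in the sources used here. Each ranked list gives the authors' peak caller signal, relative to a control, and −log10 of the global IDR as computed by the authors. In the ranked list used, 61.5% of first-input intervals and signals equal an entry of the list of replicate 1 and 0% one of replicate 2, and 47.0% of second-input entries equal one of replicate 2, so the inputs were taken as replicates 1 and 2. For the 36 histone regions this held for 33 and 26. Chromosome lengths of WBcel235 covered all region ends. Genes came from Ensembl release 115, with symbols and products from RefSeq, matched by identifier for 72 of 72.

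From these lists, summits were assigned to windows, and words and motifs were counted on both strands, with Python 3.11.15, numpy 2.4.6 and pandas 2.3.3. Window assignment, motif search and repeat counting were tested on simulated data and recovered 100% of 200 planted windows. Results are counts and medians over genes, with no test, because there is 1 group and genes are not replicates. Named are all members with a thresholded peak, the 10 strongest and the 3 weakest, every lone gene, every gene with the extended consensus, and the strongest and weakest of each cluster and pair. Members and lists were chosen with earlier results of these data known. Alternatives changed the window, the list, the replicate, the cluster and pair distances, the motif and the treatment of repeated words and of genes without a region. Depth is unknown, so no interval was given.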

Additional observations from a re-analysis of the deposited data

How the results depend on the processing

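The median signal of histone genes was 34.5; it was 23.0 with the window of 500 bp upstream to 100 bp downstream, 23.0 when a region counted only for its nearest gene start, and 14.6 to 19.7 on the signals of 1 replicate, which are on a smaller scale than the pooled value. The number of genes with a region, 40, fell to 18 with the nearest start only. The number with a thresholded peak, 2, was 0 with the narrow window and 0 to 1 in the lists of single replicates. The number above the 90th percentile, 17, was 5 with the narrow window and 4 with the nearest start, where the share (5.56%) was close to that of coding genes (4.88%). The percentile of the median, 80.9, was 45.0 with the narrow window, 67.1 with the wide one, 41.9 with the nearest start, 45.0 with genes without a region at 0, and 64.9 to 80.2 on 1 replicate. The difference for clustered genes, -15.1, was -8.09 with the narrow window, -17.0 with the wide one, -12.4 in the other ranked list and -5.31 to -3.11 on 1 replicate, and reversed to 2.10 with starts joined within 10000 bp. The difference for paired genes, -15.1, was -6.69 with the wide window, -5.43 in the other list, -22.9 with the nearest start and -5.31 to -2.92 on 1 replicate. The CCAAT difference, -10.3, was -20.5 from 250 bp upstream to 50 bp downstream, reversed to 9.14 with the wide window and 12.1 with the extended consensus, and ran from -3.17 to 9.38 on 1 replicate. The number of gaps with a summit, 7, was 4 to 10 in the lists of the replicates, an alternative chosen after seeing the data. Causes of these changes were not tested, except that the narrow window and the nearest start leave out summits beyond the partner gene. No paired analysis was possible because there is 1 group. Repeated sequence, unknown depth and the lack of a second group limit all of these values.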
